A study of Homo sapiens with 8 samples.

Results

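The genes described here were ATF4, 2 further regulators of the integrated stress response (DDIT3 and TRIB3), asparagine synthetase (ASNS), the enzymes of serine synthesis (PHGDH, PSAT1 and PSPH), the mitochondrial enzymes SHMT2 and MTHFD2, and mitochondrial PEPCK (PCK2). They were chosen by name, and their values were the summed counts of every transcript that GENCODE version 44 assigns to them. These are 10 of the 62639 genes with a listed transcript. They hold 158 of the 254070 listed transcripts, and reads were counted on 89 of these. MOLM-13 is an established human acute myeloid leukemia cell line. All of its cells here carried a lentivirus with mCherry and a dox-inducible cassette for ΔLNGFR and an shRNA, and all were given dox for 9 days. The shPTBP1 group (PTBP1 KD, 4 biological replicates) expressed an shRNA against the splicing factor PTBP1, and the shSCR group (4 biological replicates) expressed a scrambled shRNA. The study's methods describe 1 shRNA per group, so effects of the shRNA other than PTBP1 loss cannot be told apart from it. Total RNA was read as full-length cDNA on a nanopore instrument, which allows counts per splice isoform.

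ATF4 is a transcription factor whose translation increases when eIF2 is phosphorylated, as happens under amino acid shortage, endoplasmic reticulum stress, heme shortage or viral infection. It acts with C/EBP family partners and switches on genes for amino acid synthesis, amino acid import and tRNA charging, which include those of the serine pathway. That pathway draws a glycolytic intermediate into serine, and serine feeds glycine, nucleotide and glutathione synthesis, on which leukemia cells depend heavily. Because ATF4 is controlled mainly at translation, its mRNA level is a limited measure of its activity.

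The libraries held from 1528449 to 1613342 counts, with 12322 to 12589 genes detected in each. The targeted PTBP1 mRNA averaged 47.5 ± 7.81 normalized CPM with shSCR and 9.88 ± 3.55 with shPTBP1 (SD, n = 4 each). Its log2 fold change was -2.26 (edgeR adjusted p = 7.18e-05), and the groups did not overlap. Normalized CPM (CPM being a count set against the total of its library) are those after edgeR's TMM scaling. All 10 myeloid markers examined had counts, and their summed level was 1030 to 1152 CPM after shPTBP1 and 879 to 955 CPM after shSCR. Of the 3 T cell markers none had a count, and B cell, erythroid and epithelial markers each summed to at most 1.31 CPM in any library. The 3 fibroblast markers summed to 10.2 to 13.9 CPM after shPTBP1 and 8.87 to 11.2 CPM after shSCR. The part of these marker levels in the results below was not tested.

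The DNA element most closely tied to ATF4 is the composite C/EBP-ATF site. It was searched for as TGATGNAA, or TTNCATCA on the opposite strand, where N is any base, within 1000 bases on either side of the annotated start of each gene's MANE transcript. The search found 15 matches in 8 of the 10 genes, and none in ATF4 or PSPH, while 18.6% of 19061 such windows in the genome held at least 1 match. The sequences below show where these letters stand in each gene that has them. They are from the hg38 genome, written along the strand of the gene, with the match in capitals. Only the match nearest to the start is given for each gene, except for PHGDH, where both are given.
DDIT3, chr12:57520802-57520831, minus strand: gttgccaaacaTTGCATCAtccccgccccc
TRIB3, chr20:380881-380910, plus strand: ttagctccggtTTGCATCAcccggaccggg
ASNS, chr7:97872458-97872487, minus strand: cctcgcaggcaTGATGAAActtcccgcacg
PHGDH, chr1:119712786-119712815, plus strand: cgcccctcgtcTGATGCAAgactgctccgt
PHGDH, chr1:119710969-119710998, plus strand: cataattctcaTTGCATCActaatttgaaa
PSAT1, chr9:78297381-78297410, plus strand: ccctaggcgctTTGCATCAgcgtgcacagc
SHMT2, chr12:57230159-57230188, plus strand: agccctgcagaTGATGCAAccgagcttcac
MTHFD2, chr2:74199202-74199231, plus strand: gctgctgcagcTGATGAAAtcgcggagccg
PCK2, chr14:24094025-24094054, plus strand: agtcctcaaagTTACATCAtgtgcggctgg
The matches fell 306 bases before the start in DDIT3, 68 in ASNS, 275 in PCK2 and 954 in PHGDH. They fell in the first part of the gene, 132 bases after the start in TRIB3, 267 in PSAT1, 459 in SHMT2, 598 in MTHFD2 and 863 in PHGDH. The match in TRIB3 stands in the untranslated part of an exon and is followed by 2 identical copies of the whole stretch, 165 and 198 bases after the start. The matches in PSAT1, MTHFD2 and PHGDH after the start are in introns, and that of DDIT3 before the start also lies inside the neighbouring gene MBD6. In SHMT2 a second match on the opposite strand begins 481 bases after the start, and both stand in an intron of the MANE transcript and in the first exon of the shorter isoform SHMT2-202. The MANE transcript of ASNS, ASNS-202, held 2 counts over all libraries. In the leading isoform ASNS-201 the match given lies inside the first exon. The PHGDH match before the MANE start lies in an intron of the longer isoform PHGDH-223. In a narrower window, from 250 bases before to 50 after the start in RefSeq, 8 of the 10 genes could be matched and 1, ASNS, held the letters, against 3.62% of 35116 such promoters. A match of letters does not show that a factor binds there, and most of these genes were picked as known ATF4 targets.

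**Figure D1:**
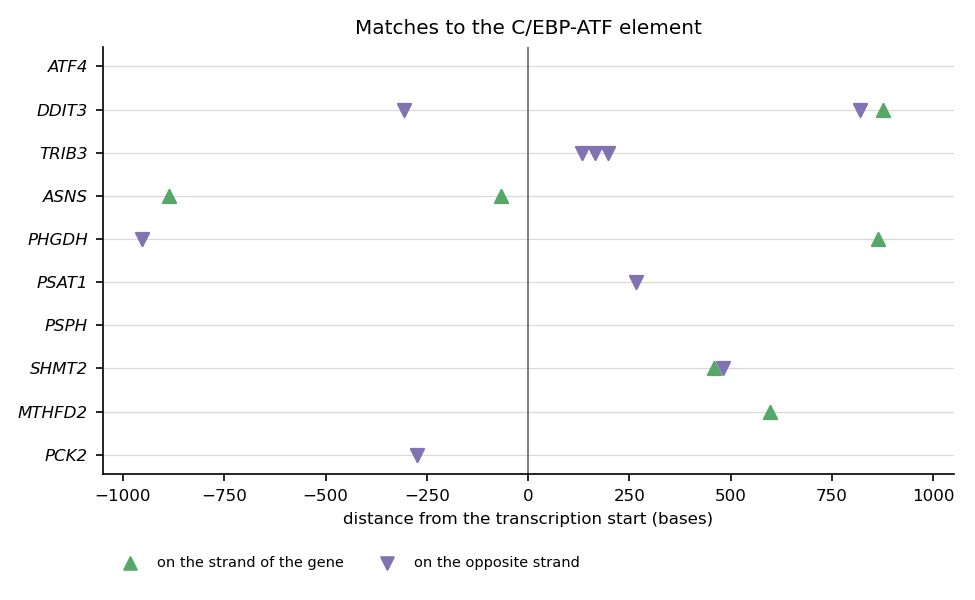
Positions of the letters TGATGNAA around the annotated start of each of the 10 genes. The horizontal axis is the distance from the start in bases, with negative values upstream. Upward triangles mark matches on the strand of the gene and downward triangles those on the opposite strand. ATF4 and PSPH have none within 1000 bases, and TRIB3 has 3 in a row.

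Of the 10 genes, PCK2 and PHGDH were lower after PTBP1 KD, and the other 8 did not pass the test. With edgeR's quasi-likelihood test at an adjusted p under 0.05, 2 of the 10 were lower, against 3.19% of the 7597 genes tested, and none was higher, against 2.36% (5.54% in either direction). The counts over all genes fell with 1 library left out, from 242 lower and 179 higher to between 107 and 190 lower and between 77 and 168 higher. In at least 1 direction they fell by over 1.5 times without shPTBP1 replicate 2, 3 or 4 or shSCR replicate 2 or 4, and the fewest were called without shPTBP1 replicate 3. At an unadjusted p under 0.05 edgeR had 3 of the 10 lower and 1 higher, against 10.1% and 9.1% of all genes. DESeq2 gave an adjusted p to 9 of the 10 and called 2 lower and 1 higher. Over all genes it called 157 lower and 157 higher of 5293. All 10 passed the filter on low counts. The median log2 fold change of the 10 was -0.074, and that of all genes tested was -0.00014. For DDIT3, PHGDH and PCK2 the libraries of the groups did not overlap, which is 3 of 10 genes against 12.7% of all genes tested. PHGDH and PCK2 were below (6.37% of all genes) and DDIT3 was above (6.32%). In RNA from bulk cells, a lower level in each cell and fewer cells with the RNA cannot be told apart.

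**Figure D2:**
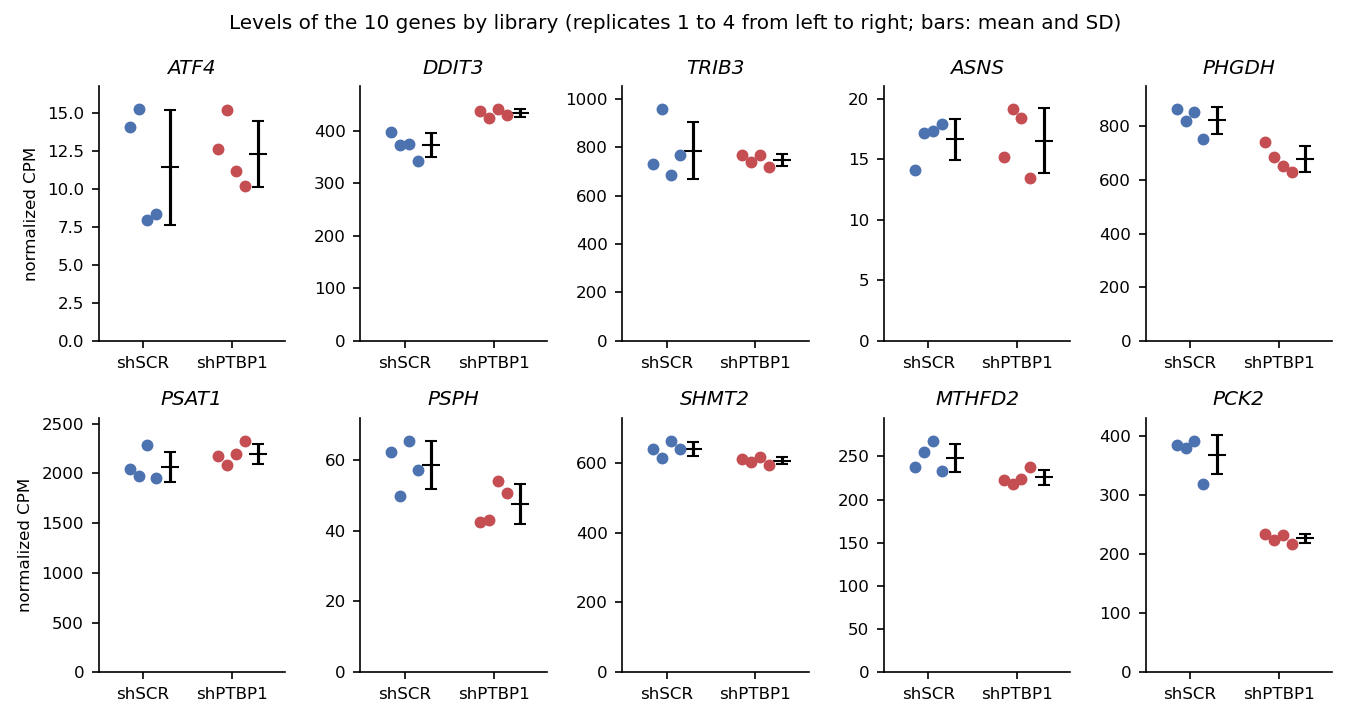
Normalized CPM of the 10 genes in each library. The vertical axes start at 0 and differ between panels. Points are libraries in the order of their replicate numbers, blue for shSCR and red for shPTBP1, and bars give the mean and SD of 4 libraries. The groups are apart for DDIT3, PHGDH and PCK2, and they overlap for the other 7 genes.

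The ATF4 mRNA itself had few counts and did not differ detectably. It was 12.7, 15.2, 11.2 and 10.2 normalized CPM in shPTBP1 replicates 1 to 4 and 14.1, 15.3, 8.002 and 8.34 in shSCR replicates 1 to 4. The ranges overlap, and shSCR replicates 3 and 4 gave the lowest values. These levels rest on 12 to 24 counts per library. The authors kept reads with a mapping quality above 50, and ATF4 has annotated pseudogenes (ATF4P1 to ATF4P4), which held 0 counts. PSAT1, PSPH and MTHFD2 have annotated pseudogenes as well. How many reads of ATF4 and of these other genes this filter removed was not tested. The log2 fold change was 0.10, with a 95% interval from -0.48 to 0.68 and an edgeR adjusted p of 0.890. Changes in ATF4 mRNA within that interval are therefore compatible with these counts, and the interval is not a limit of detection.

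DDIT3 encodes CHOP, a C/EBP family factor that accumulates under prolonged stress. It was 437, 425, 441 and 430 normalized CPM after shPTBP1 and 398, 374, 375 and 342 after shSCR. The shPTBP1 libraries were close to each other and above every shSCR library. The difference was 16.5% in level, a log2 fold change of 0.22 with a standard error of 0.062 and a 95% interval from 0.087 to 0.35. Its edgeR adjusted p was 0.0569, which misses the threshold, and the exact two-sided permutation test gave p = 0.0286, the smallest that 4 libraries against 4 allow. DESeq2 (adjusted p = 0.0304) and a filter at a mean of at least 50 counts (edgeR adjusted p = 0.0418) did call it. DDIT3 overlaps 2 genes on the opposite strand, the methionyl-tRNA synthetase gene MARS1 and MBD6, and whether the counting used strand is not given in the sources used here. MARS1 was 744 ± 37.1 normalized CPM after shPTBP1 and 727 ± 31.3 after shSCR (n = 4 each, edgeR adjusted p = 0.819), and MBD6 held 306 counts over all libraries.

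TRIB3 encodes a pseudokinase that is induced by ATF4 and CHOP and that dampens their activity. It was 767, 739, 768 and 716 normalized CPM after shPTBP1 and 731, 956, 686 and 769 after shSCR. The shSCR libraries bracket the shPTBP1 libraries, and shSCR replicate 2 was the highest of all. The log2 fold change was -0.072, with a 95% interval from -0.26 to 0.12 (edgeR adjusted p = 0.721). Without shSCR replicate 2 it was 0.037.

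ASNS, which makes asparagine from aspartate and glutamine, had about as few counts as ATF4. It also has annotated pseudogenes, and how many ASNS reads the filter on mapping quality removed was not tested. Its levels were 15.2, 19.2, 18.4 and 13.4 normalized CPM after shPTBP1 and 14.1, 17.2, 17.3 and 17.97 after shSCR, and the groups overlap fully. The log2 fold change was -0.0091, with a 95% interval from -0.42 to 0.40 (edgeR adjusted p = 0.987).

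In the serine pathway the first enzyme was lower and the second was not. PHGDH, which oxidizes phosphoglycerate and commits it to serine, was 741, 687, 654 and 629 normalized CPM after shPTBP1 and 865, 819, 856 and 752 after shSCR. All 4 shPTBP1 libraries lay under the shSCR range, though shPTBP1 replicate 1 and shSCR replicate 4 were only narrowly apart. PHGDH fell by 17.6%, a log2 fold change of -0.28 with a standard error of 0.067 and a 95% interval from -0.42 to -0.13 (edgeR adjusted p = 0.0296). The exact two-sided permutation test gave p = 0.0286. The call was lost when shPTBP1 replicate 2, 3 or 4 or shSCR replicate 1, 2 or 3 was left out, with edgeR adjusted p between 0.0187 and 0.103 over the 8 fits that leave out 1 library each.

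PSAT1, the aminotransferase of the next step, was the most abundant of the 10 genes. It was 2176, 2087, 2193 and 2329 normalized CPM after shPTBP1 and 2044, 1969, 2283 and 1951 after shSCR. The groups overlap because shSCR replicate 3 lies above 3 of the shPTBP1 libraries. The log2 fold change was 0.091, with a 95% interval from -0.040 to 0.22 (edgeR adjusted p = 0.455).

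PSPH, the phosphatase that releases serine, was far less abundant. It was 42.4, 42.9, 54.0 and 50.6 normalized CPM after shPTBP1 and 62.1, 49.7, 65.4 and 57.1 after shSCR. Only shSCR replicate 2 fell within the range of the shPTBP1 libraries. The log2 fold change of -0.30 (standard error 0.12) was as large as that of PHGDH but less certain, with an edgeR adjusted p of 0.201 and an exact permutation p of 0.0857.

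The summed level of the 3 serine synthesis genes was 2922 ± 82.4 normalized CPM after shPTBP1 and 2943 ± 194 after shSCR (SD, n = 4), so the groups differed by less than the spread among libraries. The ratio of PSAT1 to PHGDH counts within a library was 2.93, 3.04, 3.36 and 3.70 after shPTBP1 and 2.36, 2.41, 2.67 and 2.59 after shSCR. These ranges do not overlap. The ratio does not depend on library scaling, and it contains the PHGDH difference already given. The ratio of PHGDH to PSPH was 14.5 ± 2.66 after shPTBP1 and 14.2 ± 1.59 after shSCR (SD, n = 4), and these ranges overlap.

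SHMT2 and MTHFD2, which pass the carbon of serine into the mitochondrial folate pool, were slightly lower in mean and did not pass the test. SHMT2 was 612, 602, 615 and 593 normalized CPM after shPTBP1 and 638, 614, 663 and 638 after shSCR. The groups overlap only because shSCR replicate 2 lies just below shPTBP1 replicate 3. Its log2 fold change was -0.077, with a 95% interval from -0.19 to 0.038 (edgeR adjusted p = 0.477).

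MTHFD2 was 223, 218, 224 and 238 normalized CPM after shPTBP1 and 238, 255, 268 and 233 after shSCR. Here shPTBP1 replicate 4 lies above 2 of the shSCR libraries. Its log2 fold change was -0.14, with a 95% interval from -0.29 to 0.011 (edgeR adjusted p = 0.298). The intervals of both genes leave out a fall of the size seen for PCK2.

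PCK2, which turns mitochondrial oxaloacetate into phosphoenolpyruvate and can feed the serine pathway from below, changed most. It was 235, 224, 232 and 218 normalized CPM after shPTBP1 and 385, 380, 393 and 320 after shSCR. The lowest shSCR library, replicate 4, was still well above the highest shPTBP1 library. PCK2 fell by 38.4%, a log2 fold change of -0.70 with a standard error of 0.075 and a 95% interval from -0.86 to -0.54. Its edgeR adjusted p of 0.000136 ranked 17 among the 7597 genes tested. The exact permutation p was 0.0286. It was called with every other test, scaling and filter tried and with any 1 library left out, where the edgeR adjusted p stayed at or below 0.00139.

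**Figure D3:**
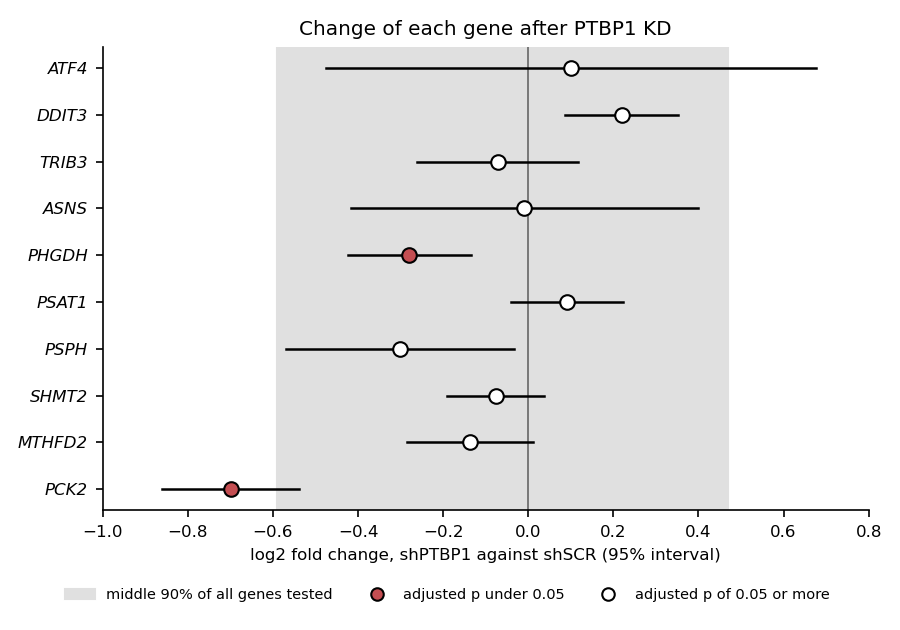
Log2 fold change of each of the 10 genes, shPTBP1 against shSCR, with its 95% interval from edgeR's quasi-likelihood fit of 8 libraries. Filled points have an adjusted p under 0.05. The grey band holds the middle 90% of all genes tested, from -0.59 to 0.47. PCK2, at -0.70, lies outside the band, and the other 9 genes lie inside it.

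Ratios within a library give the same differences without any scaling, and those with PCK2 restate its fall. The ratio of DDIT3 to PCK2 counts was 1.86, 1.90, 1.90 and 1.98 after shPTBP1 and 1.03, 0.983, 0.954 and 1.07 after shSCR. The ratio of PSAT1 to PCK2 was 9.67 ± 0.686 after shPTBP1 and 5.60 ± 0.432 after shSCR (SD, n = 4), again without overlap. By contrast, the ratio of SHMT2 to MTHFD2 was 2.69 ± 0.131 after shPTBP1 and 2.58 ± 0.161 after shSCR, and these ranges overlap. Correlations of log2 CPM were taken over libraries of the same group, after removal of the group means. Among the 45 pairs of the 10 genes the median was 0.109, as a description over 8 libraries. The pairs ranged from -0.71 for SHMT2 with TRIB3 to 0.855 for DDIT3 with PCK2.

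In normalized CPM, the shSCR means were 2062 for PSAT1, 823 for PHGDH, 786 for TRIB3, 638 for SHMT2 and 372 for DDIT3. Where each read stands for 1 full-length cDNA, the order of abundance is that of the CPM. Division by length then favors short transcripts, such as those of DDIT3 with a mean of 0.905 kb. The levels per kb are given as a description and not as an order of abundance. Per kb of transcript, PSAT1 had the highest level in shSCR, at 935 ± 69.3 CPM per kb, followed by DDIT3 at 411 ± 25.3. PHGDH at 377 ± 23.4, TRIB3 at 343 ± 51.9 and SHMT2 at 316 ± 9.93 followed. PHGDH and SHMT2 each differed from TRIB3 by less than its SD. PCK2 at 171 ± 15.6, MTHFD2 at 61.0 ± 3.96 and PSPH at 27.3 ± 3.18 were lower in turn by more than their spread. ASNS at 7.51 ± 0.774 and ATF4 at 6.31 ± 2.10 were the lowest and differed by less than the SD of ATF4. After shPTBP1 the order per kb differed only in that TRIB3, at 326 ± 10.8, came before PHGDH, at 311 ± 22.2 CPM per kb. These levels differ by less than the SD of PHGDH.

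Where isoform usage of these genes could be tested, it did not change past the test. A transcript was called when diffSpliceDGE of edgeR gave an adjusted p under 0.05 and its share of the gene's counts moved by at least 10 percentage points. Of 17 isoforms of the 10 genes that could be tested, 0 were called, against 1.12% of the 5464 isoforms tested in all (1.81% by adjusted p alone). The 17 belong to DDIT3, TRIB3, PHGDH, SHMT2, MTHFD2 and PCK2, while ATF4, ASNS, PSAT1 and PSPH had no isoform tested. With limma's diffSplice none of the 17 was called, against 155 of the 5464 isoforms. None of the 17 had an unadjusted p under 0.05 with either tool. The share of all isoforms under that threshold was not taken, so this count is only a description.

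Most PCK2 counts lay on 1 isoform. PCK2-201, on chr14:24094311-24104125, held 89.1% ± 1.27 of the gene's counts after shPTBP1 and 91.0% ± 1.53 after shSCR (exact permutation p = 0.143). In level it was 213, 201, 206 and 191 normalized CPM after shPTBP1 and 345, 351, 362 and 287 after shSCR, with the groups apart as for the whole gene.

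PHGDH counts lay mostly on isoforms with annotated starts far apart. PHGDH-208, the MANE transcript on chr1:119711934-119744215, held 51.2% ± 1.91 of the counts after shPTBP1 and 51.0% ± 1.35 after shSCR (exact permutation p = 0.914). PHGDH-223, on chr1:119648411-119744190, is annotated to begin 63523 bases upstream and has the same coding length of 1599 bases. Its later exons match those of PHGDH-208, so reads that do not reach its upstream exons may not tell the isoforms apart. Where the reads began was not examined. PHGDH-223 held 44.1% ± 1.33 after shPTBP1 and 44.7% ± 1.94 after shSCR. The levels of both were lower in mean, at 348 ± 35.9 against 419 ± 23.5 normalized CPM for PHGDH-208 and 299 ± 15.1 against 368 ± 28.6 for PHGDH-223. The groups were apart for PHGDH-223 and overlapped for PHGDH-208.

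SHMT2 counts were spread over 3 main coding isoforms. SHMT2-232 held 33.2% ± 0.891 after shPTBP1 and 31.2% ± 1.52 after shSCR (exact permutation p = 0.0857). SHMT2-201, the MANE transcript, held 30.3% ± 1.41 and 32.3% ± 1.75, and SHMT2-202, which starts 375 bases further downstream, held 25.1% ± 1.15 and 26.05% ± 1.48, in the same order of groups.

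MTHFD2 was the gene with the largest share of non-productive isoforms. Transcripts that GENCODE marks for nonsense-mediated decay, in which an early stop codon leads to breakdown of the mRNA, held 17.1% ± 2.57 of its counts after shPTBP1 and 14.8% ± 2.12 after shSCR (exact permutation p = 0.229). In SHMT2 such transcripts held 9.47% ± 0.594 after shPTBP1 and 8.18% ± 0.811 after shSCR, with overlap (exact permutation p = 0.0571). In MTHFD2 the main coding isoform MTHFD2-201 held 79.4% ± 3.39 and 82.1% ± 2.73, and the decay isoform MTHFD2-208 held 12.7% ± 1.44 and 12.2% ± 2.19. MTHFD2-208 carries an extra exon of 98 bases at chr2:74201382-74201479, which was present in 13.9%, 16.7%, 18.2% and 18.5% of the gene's counts after shPTBP1 and in 14.99%, 13.8%, 16.4% and 11.02% after shSCR. These ranges overlap. Another decay isoform, MTHFD2-214, has that exon and a further one of 107 bases. It was singled out after its values were seen, since its share was 4.03% ± 1.24 after shPTBP1 and 1.74% ± 0.423 after shSCR, from 5 to 17 counts per library. It did not pass the default filter, and with a filter at a mean of 10 counts its adjusted p in diffSpliceDGE was 0.136.

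In the remaining genes a single isoform led or the counts were few. PSAT1-202 held at least 99.87% of the PSAT1 counts in every library, DDIT3-201 held 96.3% ± 0.968 after shPTBP1 and 96.1% ± 0.161 after shSCR, and TRIB3-201 held 94.3% ± 0.232 and 95.2% ± 1.09. PSPH-202 held 87.6% ± 3.75 after shPTBP1 and 90.7% ± 0.437 after shSCR (exact permutation p = 0.0571), and PSPH-201 held 10.8% ± 2.55 and 8.62% ± 1.53. ATF4-203 held 56.2% ± 12.2 of the ATF4 counts after shPTBP1 and 68.2% ± 5.62 after shSCR (exact permutation p = 0.143), followed by ATF4-201 with 22.5% ± 6.11 and 9.60% ± 8.99 and by ATF4-206 with 17.5% ± 6.72 and 14.2% ± 11.9. ASNS-201 held 52.8% ± 10.7 and 52.2% ± 9.24 of the ASNS counts, ASNS-203 held 24.3% ± 8.02 and 36.2% ± 5.19, and ASNS-214 held 10.6% ± 2.58 and 3.78% ± 5.44. The shares of ATF4 and ASNS rest on fewer than 30 counts per library, and their isoforms were too scarce to be tested.

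**Figure D4:**
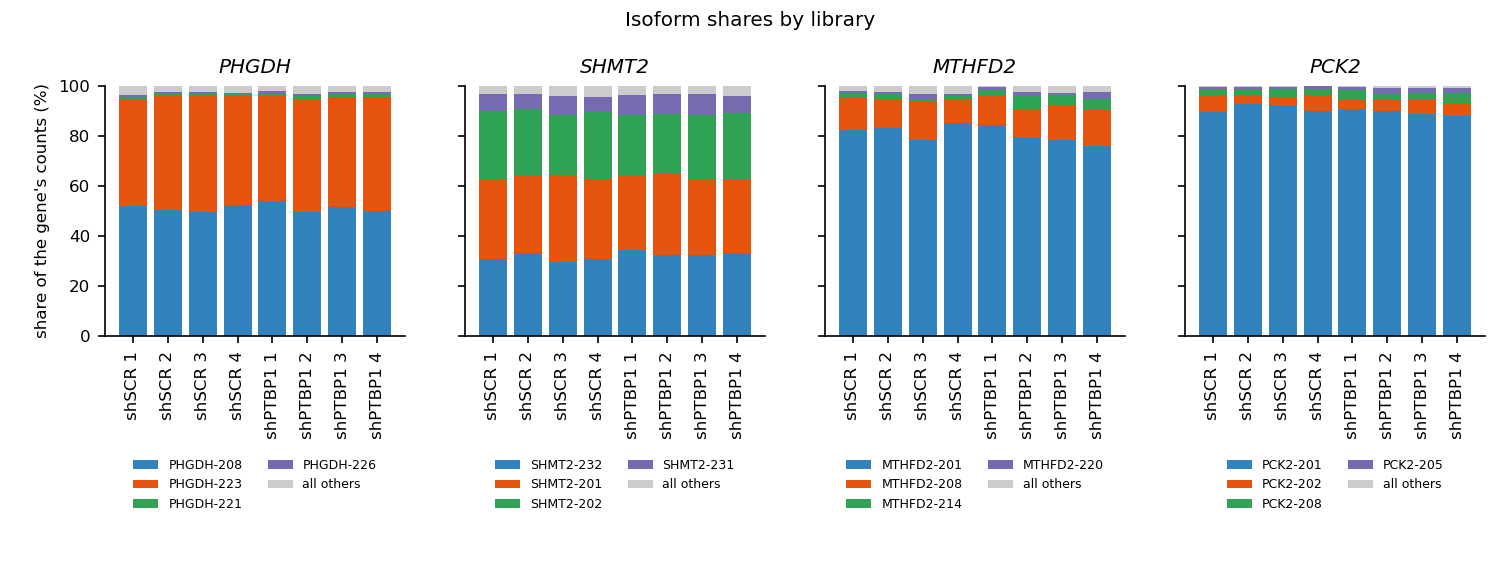
Isoform shares, in percent of the counts of the gene, by library, for PHGDH, SHMT2, MTHFD2 and PCK2. Each bar is 1 library and the colours are the 4 isoforms with the most counts, with all others in grey. The shares of the groups overlap for each of the leading isoforms, and PHGDH is divided nearly evenly between PHGDH-208 and PHGDH-223.

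Most other genes of the ATF4 pathway did not pass the test in either direction. Among 30 further genes known to respond to ATF4, 22 had enough counts, 1 was lower, against 3.19% of all genes tested, and 0 were higher, with a median log2 fold change of 0.026. At an unadjusted p under 0.05 edgeR had 5 of the 22 lower and 0 higher, against 10.1% and 9.1% of all genes. DESeq2 called 0 higher, against 157 of 5293 over all genes. The lower gene was DDIT4, an inhibitor of mTORC1, at 127, 105, 106 and 96.0 normalized CPM after shPTBP1 and 152, 204, 132 and 150 after shSCR. The groups are apart, and DDIT4 had a log2 fold change of -0.56 with a standard error of 0.13 (edgeR adjusted p = 0.0243). The call was lost when shPTBP1 replicate 2, 3 or 4 or shSCR replicate 4 was left out. EIF4EBP1, the translation repressor with the highest level in this list, was 1090 ± 47.1 after shPTBP1 and 1030 ± 64.3 normalized CPM after shSCR (n = 4 each, edgeR adjusted p = 0.508).

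The tRNA synthetases that ATF4 induces did not pass the test, with 0 of 12 lower and 0 higher by edgeR and a median of 0.013. The most abundant, TARS1 and NARS1, had log2 fold changes of -0.010 and 0.13 (edgeR adjusted p = 0.934 and 0.246). Of 25 further enzymes and carriers of folate and glycine metabolism, 15 were tested, with 0 lower and 0 higher and a median of 0.082. TYMS, which makes thymidylate, had a log2 fold change of 0.22 (edgeR adjusted p = 0.332). MAT2A, which makes S-adenosylmethionine, was 344 ± 5.40 after shPTBP1 and 293 ± 32.4 normalized CPM after shSCR, without overlap and with a log2 fold change of 0.23 (n = 4 each, edgeR adjusted p = 0.110). Of other regulators of the serine genes, MYC had a log2 fold change of 0.0072 and KDM4C of -0.14 (edgeR adjusted p = 0.972 and 0.684), and 0 of the 5 genes tested were called, with a median of -0.13. At an unadjusted p under 0.05 edgeR had 0 lower in these 3 lists and 2 higher among the tRNA synthetases, 2 among the folate and glycine genes and 0 among the regulators. Over all genes, 10.1% were lower and 9.1% higher at that threshold, and 3.19% and 2.36% after adjustment. DESeq2 and limma-voom also called 0 genes of each of the 3 lists. Over all genes DESeq2 called 157 lower and 157 higher of 5293, and limma-voom 220 and 156 of 7597.

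Upstream of ATF4, 18 of 20 genes for eIF2, its kinases, its exchange factor eIF2B and their partners were tested, with 0 lower, 1 higher and a median of 0.0044. Over all genes tested, 3.19% were lower and 2.36% higher. At an unadjusted p under 0.05, 2 of the 18 were lower and 2 higher, against 10.1% and 9.1% of all genes. EIF2S3, the gamma subunit of eIF2, was 575, 640, 600 and 670 normalized CPM after shPTBP1 and 489, 538, 507 and 502 after shSCR. Every shPTBP1 library was above every shSCR library, and EIF2S3 rose by 0.29 on the log2 scale with a standard error of 0.064 (edgeR adjusted p = 0.02005). The call was lost without shPTBP1 replicate 2 or 4 or shSCR replicate 1 or 4. EIF2A, an initiation factor separate from eIF2, had a log2 fold change of 0.15 (edgeR adjusted p = 0.271).

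A list of 20 endoplasmic reticulum stress genes was assigned from general knowledge to branches outside ATF4, and it shares DNAJC3 with the eIF2 list. Of these, 16 were tested, with 3 lower, against 3.19% of all genes tested, 0 higher and a median of -0.11. At an unadjusted p under 0.05, 5 of the 16 were lower and 0 higher, against 10.1% and 9.1% of all genes. DESeq2 called 0 higher, against 157 of 5293 over all genes. HYOU1, a chaperone of the reticulum, had a log2 fold change of -0.61, and EDEM1, which helps to dispose of misfolded glycoproteins, had one of -0.52 (edgeR adjusted p = 0.02005 and 0.0128). HYOU1 was 96.5 ± 24.9 normalized CPM after shPTBP1 and 147 ± 4.83 after shSCR (n = 4 each). EDEM1 was 130, 145, 145 and 123 normalized CPM after shPTBP1 and 235, 194, 179 and 167 after shSCR, without overlap. CALR, the calcium-binding chaperone calreticulin, was 1151 ± 59.2 after shPTBP1 and 1342 ± 70.1 after shSCR (n = 4 each, log2 fold change -0.22, edgeR adjusted p = 0.0434). The call of EDEM1 held with any 1 library left out, that of HYOU1 was lost without shPTBP1 replicate 2, 3 or 4 or shSCR replicate 2 or 4, and that of CALR was lost whichever library was left out.

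**Figure D5:**
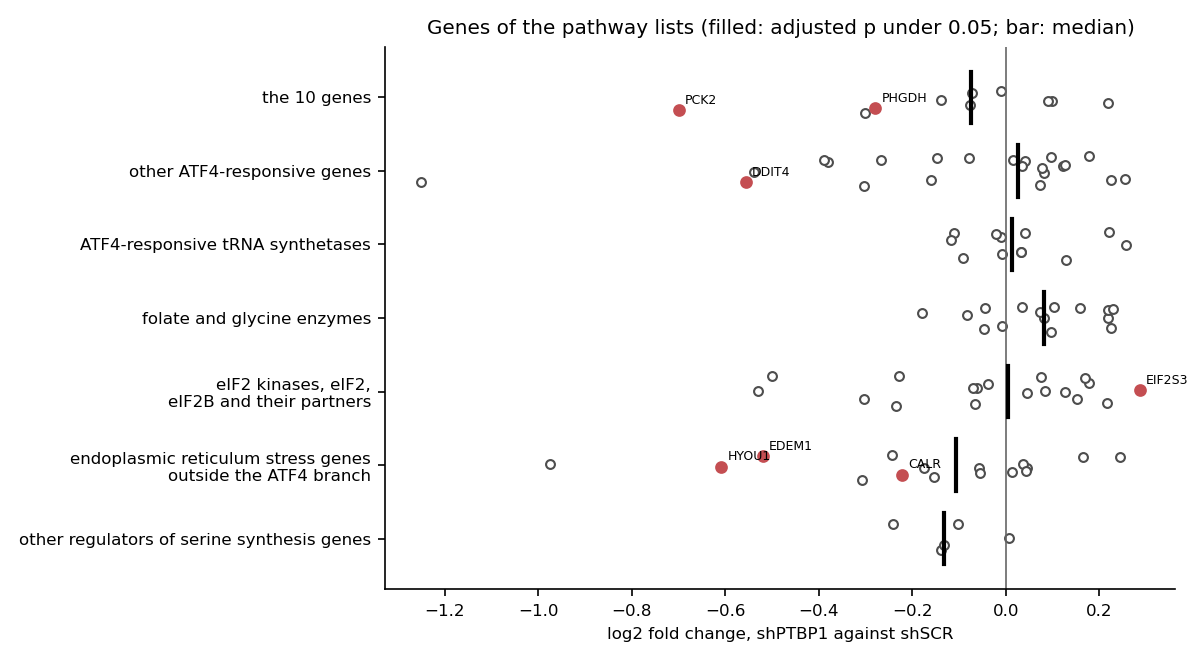
Log2 fold change, shPTBP1 against shSCR, of every tested gene of the 10 and of 6 related lists. Each point is a gene, filled where its edgeR adjusted p was under 0.05 and then named, and the bar is the median of the list. Medians lie between -0.13 and 0.082, and PCK2 is the lowest of the filled points.

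The genes whose levels over the 8 libraries followed the mean of the 10 most closely were ZWINT, a kinetochore protein (Pearson r = 0.982), RNF114, a ubiquitin ligase (r = 0.953), RB1CC1, an autophagy protein (r = 0.951), STYXL1 (r = 0.943) and CDC42BPA (r = 0.931). For this the levels were taken as log2 CPM and each of the 10 genes was given equal weight as a z-score. The values describe 8 libraries that share the difference between the groups, and the 5 were the highest of all genes tested. ZWINT was 84.4 ± 7.48 normalized CPM after shPTBP1 and 103 ± 12.6 after shSCR, with an edgeR adjusted p of 0.163 (n = 4 each), and none of the 5 passed the test.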

How the data were processed

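RNA was measured in 8 libraries of MOLM-13 cells, 4 with shPTBP1 and 4 with shSCR, after 9 days of dox. The authors prepared nanopore cDNA libraries, mapped reads to hg38 with minimap2, kept those with a mapping quality above 50 and counted transcripts with StringTie. Tool versions, the annotation and the use of strand are not given in the sources used here. The deposited counts per transcript are whole numbers and were not normalized. The deposited table named TPM holds CPM that the authors made per library total with no length correction (largest difference from the counts 4.998e-07, at a tolerance of 1e-06).

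Counts were summed per gene by transcript identifier in GENCODE version 44, which held 252562 of the 254070 transcripts. Genes kept by filterByExpr (minimum count 10) were scaled by TMM and entered a quasi-likelihood fit in edgeR 4.0.16 with no covariate besides group, and p values had Benjamini-Hochberg adjustment over all 7597 genes. The biological coefficient of variation was 10.3%. Isoform shares were tested with diffSpliceDGE over 5464 transcripts of 2163 genes. Permutation tests were exact and two-sided over the 70 splits of 8 libraries. The level per kb divides by the mean transcript length weighted by counts. PTBP1, the 10 genes, the called genes of each list (at most 4, filled up to 2 by level) and the 5 most similar genes were named. For isoforms, the leading one and those with a mean share of at least 10% in either group were named, and MTHFD2-214 was added after its values were seen. The genes, lists and tests were chosen with earlier results of these data known. Some lists overlap, through ALDH1L2, PPP1R15A and DNAJC3.

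The alternatives were DESeq2 1.42.0, limma-voom (limma 3.58.1), DESeq2's size factors, other filters, limma-trend on log2 of the CPM plus a pseudocount of 1, a replicate block, thinning and leaving out each library. Replicate numbers were not taken as pairing, since libraries of the same number correlated across genes by -0.0328 to 0.00889. Replicates varied more than counting error, with squared differences 2.12 to 3.94 times those of counting alone, and no pair of libraries agreed within counting error. The tests were tried on simulated counts with 7389 genes, where edgeR called 26.2% of changes of 0.5, 73.1% of 1 and 92.4% of 1.5 on the log2 scale, with 6 false calls. R 4.3.3 and Python 3.11.15 were used.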

Additional observations from a re-analysis of the deposited data

How the results depend on the processing

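The direction and the call of PCK2 held in all 16 alternatives, with log2 fold changes from -0.76 to -0.67. PHGDH was called in all 8 alternatives that kept every library (adjusted p at most 0.0338) and in 2 of the 8 that left 1 out, with log2 fold changes from -0.32 to -0.24. DDIT3 passed the threshold with DESeq2 (0.23) and with a mean of at least 50 counts (0.20), which made 1 of the 10 genes higher under each. Over all genes, 157 of 5293 were higher with DESeq2 and 174 of 3683 with that filter. With 1 library left out, 1 to 2 of the 10 were lower. Over all genes, 242 lower and 179 higher calls became 157 and 157 with DESeq2 and 272 and 129 with limma-trend. They became 125 and 85, 107 and 77, and 136 and 100 without shPTBP1 replicate 2, 3 and 4, and 151 and 132 and 116 and 103 without shSCR replicate 2 and 4. The replicate block left 186 genes lower and 137 higher over all genes and 2 and 0 among the 10, and it ended the call of CALR (-0.22). No filter (-0.22) and thinning (-0.21) ended it too. Leaving out 1 library moved ATF4 between -0.033 and 0.27, ASNS between -0.087 and 0.079, TRIB3 between -0.13 and 0.037, TARS1 between -0.025 and 0.0044 and MYC between -0.035 and 0.043, so that the sign of these small values turned. MYC also turned with a mean of at least 50 counts (-0.011) and limma-trend (-0.031). Of other ATF4-responsive genes, 2 were lower with limma-trend, thinning and the filter at a mean of 50, and 0 to 1 with a library left out. For the eIF2 genes 0 to 1 were higher, and for the endoplasmic reticulum stress genes 1 to 2 were lower, with a library left out. No isoform of the 10 genes was called in any alternative. MTHFD2-214 reached an adjusted p of 0.0324 without shPTBP1 replicate 1, below the 10 points required. The cause of these differences was not tested.

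Low counts limit ATF4, ASNS and PSPH most. A mean of at least 50 counts removed ATF4 and ASNS, and DESeq2 gave an adjusted p for 9 of the 10. The simulation called 26.2% of changes of 0.5 on the log2 scale, with genes drawn from all levels, so smaller changes can be missed. It was not split by level and does not give the share for a gene with as many counts as PHGDH. Intervals come from edgeR's quasi-likelihood fit of 8 libraries, 4 in each group, in which the estimate of spread is shared in part among genes. They are therefore not the spread of a gene among its 4 libraries alone. Amplified cDNA molecules are not independent.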
